A study of Mus musculus with 3 samples.

Results

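The 24-month snRNA-seq library of mouse iBAT held a large set of barcodes with very few transcripts. Barcodes with fewer than 1000 UMIs (unique molecular identifiers, each standing for 1 captured RNA molecule) were set against barcodes of 2000 to 6000 UMIs from the same library, and the 2 sets are called shallow and deep below. Both were chosen by their total UMIs. There were 3145 shallow and 3909 deep barcodes among the 10000 of the library and the 30000 of the series. The tissue came from wild-type male C57BL/6J mice, with 1 library for each of the ages 2, 12 and 24 months, and the sources used here do not say how the animals were divided among them. Nuclei had been released with a Dounce step tuned towards brown adipocyte nuclei, sorted and run on droplet 3′ chemistry, so the libraries are not an even sample of the tissue. No barcode under 1000 UMIs was present at 2 or 12 months, where the lowest barcodes held 1469 and 1343 UMIs, against 572 at 24 months. Each library had been cut to a forced number of 10000 barcodes, so these lowest counts mark where that cut fell. Whether shallower barcodes lay below it at 2 or 12 months cannot be told here. Total UMIs were 28977002, 45819738 and 37135296 at 2, 12 and 24 months.

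Shallow barcodes made up 31.45% of the 24-month library and held 2139132 UMIs, or 5.76% of its total, while deep barcodes held 14671047 UMIs, or 39.5%. The median shallow barcode had 631 UMIs (quartiles 592 and 742) and 476 detected genes. The median deep barcode had 3625 UMIs and 1774 genes. These differences follow from the choice itself: when every barcode was thinned to 500 UMIs, the medians were 392 and 389 genes. The UMI and gene limits named in the study's methods, 200 to 2000 UMIs and 100 to 3000 genes, take in all 3145 shallow barcodes and 1 of the 3909 deep barcodes. They take in 4211 of the 10000 barcodes of this library, whereas the legend of the study's map of all ages gives 30000 nuclei in total. That total equals the 30000 barcodes of the series. A map of that size includes the deep barcodes, and how the limits were applied there cannot be told. Few barcode sequences recurred in another library: 8 shallow barcodes, or 0.254%, were also listed at 2 months and 8 at 12 months.

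A nucleus holds mostly unspliced precursor RNA, in which long genes rich in introns are well represented, and RNAs such as Malat1 and Neat1 that stay in the nucleus. Spliced messengers of short genes, among them those for ribosomal proteins and for respiratory chain subunits, lie mostly in the cytoplasm. The RNAs of the mitochondrial genome are made and kept inside mitochondria. Brown adipocytes are rich in mitochondria and burn fuel for heat through UCP1, the uncoupling protein of their inner membrane.

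UMIs were summed over each set and expressed as CPM (counts per 1000000 UMIs of that set). With 1 library there are no replicates, so no test was made. Each ratio of shallow over deep CPM is given with an exact 95% interval, which covers counting error only. Of the 6388 genes with a mean level of at least 20 CPM over both sets, 3745 were higher and 2643 lower in shallow barcodes. Of these, 111 were at least 2-fold higher (1.74% of those tested) and 125 at least 2-fold lower (1.96%). The median gene had a log2 ratio of 0.10, so a gene had to pass that value to be higher than the median gene. The overall profiles were alike, with a Spearman correlation of 0.92 between the levels of the 6388 genes, which are not independent replicates.

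The mitochondrial genome was the list with the highest ratio among the transcript lists. Its 13 genes summed to 1030 CPM in shallow barcodes and 196 CPM in deep ones, a ratio of 5.25 (4.97 to 5.55). All 8 of its genes that passed the level filter were more than 2-fold higher. Of them mt-Nd4, mt-Nd2 and mt-Nd1 were at 13.6, 9.75 and 11.4 CPM in deep barcodes and passed only through their shallow level. The sum over the 13 genes did not use that filter. mt-Co3, a cytochrome c oxidase subunit, stood at 183 CPM against 34.1, a ratio of 5.35 (4.68 to 6.12). mt-Co1, the catalytic subunit of that enzyme, stood at 173 against 40.9 CPM. The lowest and highest ratios of the 8 genes were 4.23 for mt-Co1 and 6.28 for mt-Nd4, a subunit of complex I. Mitochondrial UMIs were spread unevenly over barcodes. In all, 4 shallow barcodes with at least 5% mitochondrial UMIs held 18.7% of the set's mitochondrial UMIs, and the 28 with at least 1% held 38.8%. Without those 4 the level was 839 CPM and the ratio 4.28. No deep barcode reached 5%. After thinning to 500 UMIs, 24.3% of shallow barcodes (22.8 to 25.8%) and 7.60% of deep barcodes (6.79 to 8.47%) held a mitochondrial UMI. Without thinning the shares were 30.8% and 35.9%.

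Genes for cytosolic ribosomal proteins were higher as a group. They summed to 2904 CPM in shallow barcodes and 1654 CPM in deep ones, a ratio of 1.76 (1.71 to 1.81). All 56 of the 87 listed genes that passed the filter had a higher level, and 14 were at least 2-fold higher. Rpl37 had the highest ratio at 53.8 against 21.7 CPM, and Rps7 the lowest at 23.4 against 22.1 CPM, a ratio of 1.06 that was 0.624 with barcodes under 700 UMIs. Factors of translation had a ratio of 1.53 (1.48 to 1.58), with all 19 tested genes higher. Among them Eif4a2, an RNA helicase of translation initiation, was at 282 against 116 CPM and Tpt1, a growth-linked protein of the cytosol, at 89.3 against 38.9 CPM. Some ribosomal protein genes share sequence with processed copies, which the counting could divide, so single values among them are less certain than the sum.

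Nuclear genes for oxidative phosphorylation summed to 10101 CPM in shallow barcodes and 6458 CPM in deep ones, a ratio of 1.56 (1.54 to 1.59). Of 79 tested genes 78 were higher, 15 of them at least 2-fold. Ndufa4, a small subunit of the respiratory chain, was at 111 against 44.7 CPM, Uqcr11 of complex III at 129 against 51.8 CPM, and Atp5e of the ATP synthase at 302 against 125 CPM. Sdhb, the iron-sulphur subunit of complex II, was the exception at 122 against 153 CPM. Genes for mitochondrial ribosomal proteins differed less, with a ratio of 1.23 (1.19 to 1.27), 26 of 32 higher and none at 2-fold in either direction.

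The coding sequences of the shortest such messengers show how small these transcripts are. For each of the ribosomal protein and oxidative phosphorylation lists, the 2 shortest coding sequences were taken from the 8 shortest transcripts with at least a 2-fold higher level (GENCODE vM21, mm10, without the stop codon). They are printed 5′ to 3′, and capitals mark the 3 bases on each side of every exon junction, where an intron has been removed.
Rpl41: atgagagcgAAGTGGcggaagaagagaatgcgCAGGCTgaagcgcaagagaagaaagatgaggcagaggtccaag
Rpl37a: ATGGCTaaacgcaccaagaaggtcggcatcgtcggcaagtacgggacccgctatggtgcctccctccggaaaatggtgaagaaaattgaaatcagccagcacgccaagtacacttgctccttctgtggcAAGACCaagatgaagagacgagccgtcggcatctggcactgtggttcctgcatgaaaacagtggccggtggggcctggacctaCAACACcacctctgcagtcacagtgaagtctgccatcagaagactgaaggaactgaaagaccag
Atp5e: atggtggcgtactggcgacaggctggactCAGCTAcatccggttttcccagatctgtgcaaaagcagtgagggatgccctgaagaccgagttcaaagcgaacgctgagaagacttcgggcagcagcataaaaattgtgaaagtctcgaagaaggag
Uqcr11: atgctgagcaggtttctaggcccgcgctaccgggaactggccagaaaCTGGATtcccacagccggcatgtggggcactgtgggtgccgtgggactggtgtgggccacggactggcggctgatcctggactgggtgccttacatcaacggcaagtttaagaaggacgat
The coding sequence of Rpl41, a protein of the large ribosomal subunit, is 75 bases long with 2 junctions. Its gene lies at chr10:128548114-128549305 on the minus strand, and its ratio was 2.18 (1.82 to 2.59). Rpl37a, at chr1:72711290-72713813 on the plus strand, has 276 coding bases and a ratio of 2.01 (1.56 to 2.55). Atp5e, the epsilon subunit of the ATP synthase at chr2:174461072-174464105 on the minus strand, has 156 coding bases, 1 junction and a ratio of 2.41 (2.20 to 2.63). Uqcr11, at chr10:80402997-80406830 on the minus strand, has 168 coding bases and a ratio of 2.48 (2.15 to 2.85). For contrast, Prdm16, which was lower in shallow barcodes, spans 320.7 kb, against 1.19 kb for Rpl41.

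Other short cytosolic messengers were higher too. The list of abundant ones had a ratio of 1.55 (1.53 to 1.58) and 40 of 41 tested genes higher. Fth1 and Actb, for ferritin heavy chain and beta-actin, were at 224 against 93.9 CPM and 110 against 46.3 CPM. Eno1, an enzyme of glycolysis, was the exception at 161 against 217 CPM. Host genes of small nucleolar RNAs had a ratio of 1.43 (1.31 to 1.55), and Snhg1 stood at 54.7 against 21.3 CPM. Genes for splicing factors, whose products work in the nucleus, were higher in 33 of 36 cases with a ratio of 1.30 (1.29 to 1.32). Srsf2, a serine and arginine-rich splicing factor, stood at 509 against 172 CPM, a ratio of 2.96. Son, a large scaffold of nuclear speckles, was lower at 435 against 634 CPM.

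**Figure D1:**
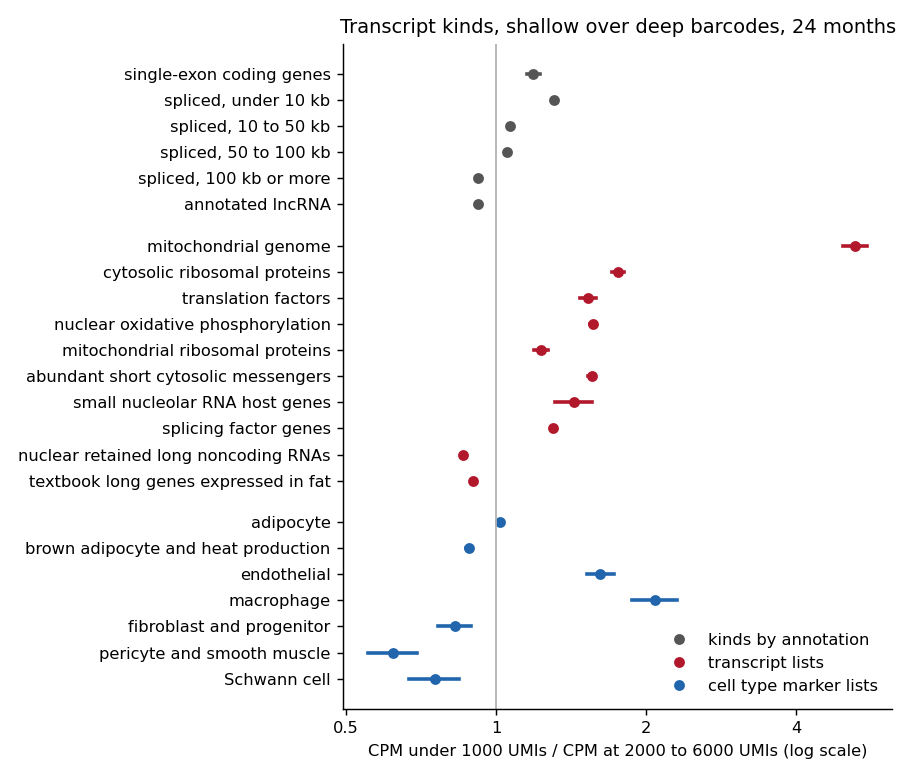
The horizontal axis is the summed CPM of shallow barcodes over that of deep barcodes on a log scale, each row is a kind of transcript or a gene list, points are ratios and bars are exact 95% counting intervals. The mitochondrial genome stands farthest to the right at 5.25, and spliced genes of 100 kb or more and the nuclear retained RNAs stand left of 1.

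Sorted by the length of the gene in the annotation, spliced protein-coding genes under 10 kb took 6.50% of shallow UMIs and 4.99% of deep UMIs, a ratio of 1.30 (1.30 to 1.31). Of the 578 tested genes of this kind, 53 were at least 2-fold higher and 3 at least 2-fold lower. Genes of 10 to 50 kb had a ratio of 1.06 and genes of 50 to 100 kb of 1.05, and both fell below 1, at 0.991 and 0.980, when ratios were centred on the median gene. Genes of 100 kb or more had a ratio of 0.918 (0.916 to 0.920), and of 1327 tested, 13 were at least 2-fold higher and 50 at least 2-fold lower. The median log2 ratio was 0.42 for spliced genes under 10 kb and −0.08 for those of 100 kb or more, beside 0.10 over all genes. Genes at least 2-fold higher had a median span of 6.31 kb, those at least 2-fold lower of 74.0 kb and all tested genes of 40.8 kb. The list of textbook long genes expressed in fat was lower in 39 of 48 cases with a ratio of 0.897. Among them Wwox and Fto were at 678 against 1194 CPM and 341 against 565 CPM, while Pde3b, a phosphodiesterase of insulin signalling, was higher at 1565 against 991 CPM.

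RNAs retained in the nucleus were lower in sum. The list had 55067 CPM in shallow barcodes and 64155 CPM in deep ones, a ratio of 0.858 (0.853 to 0.864), with 9 of 13 tested members lower and none at 2-fold. Malat1 supplied most of it, with 48050 against 54717 CPM, a ratio of 0.878 (0.872 to 0.884). Neat1, the scaffold of paraspeckles, was at 4124 against 5983 CPM, a ratio of 0.689 (0.674 to 0.705). The imprinted antisense RNAs Airn and Kcnq1ot1 were at 253 against 483 CPM and 272 against 499 CPM. Snhg14, the long transcript of another imprinted region, was higher at 27.1 against 15.6 CPM. Over all annotated long noncoding RNAs the ratio was 0.921 (0.917 to 0.925), and 97 of the 235 tested were higher. That sum includes Gm42418, a predicted gene described last, which was higher in shallow barcodes. It supplied 21190 of 103059 CPM in shallow and 14770 of 111873 CPM in deep barcodes.

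**Figure D2:**
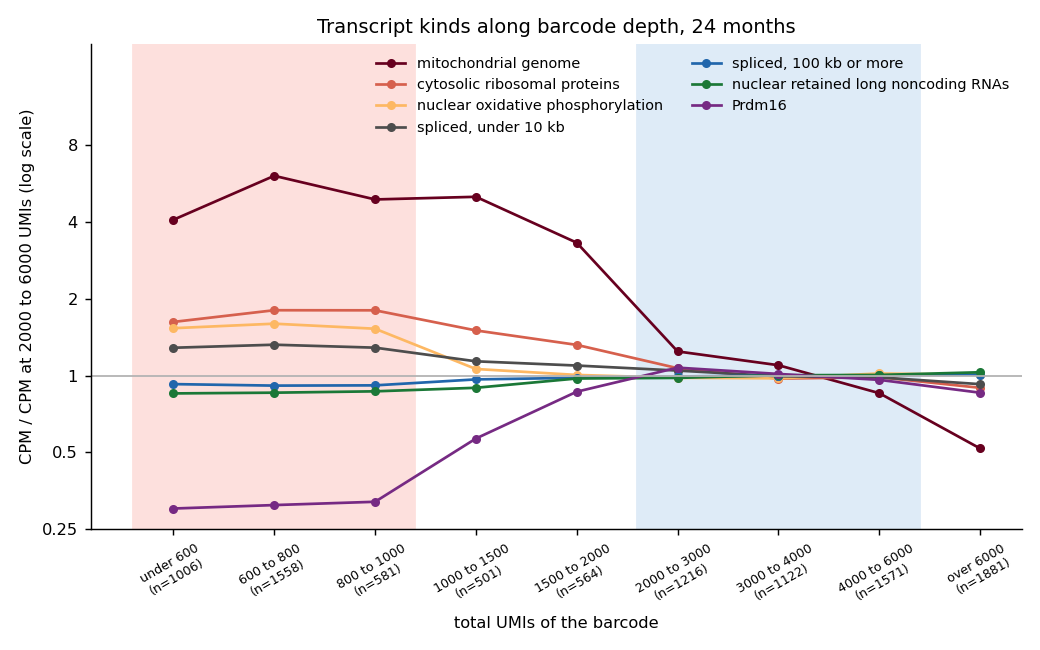
The horizontal axis is the total UMIs of the barcode in 9 bins with their number of barcodes, and the vertical axis is CPM over that of the deep set on a log scale. Red shading marks shallow and blue shading deep bins, and each line is a gene list, a kind of gene or Prdm16. Most of the lines are nearly level within the shallow bins and approach 1 between 1000 and 2000 UMIs.

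Within the shallow set some levels changed little with depth and others changed much. Nuclear oxidative phosphorylation genes stood at 9913, 10325 and 9866 CPM in barcodes under 600, of 600 to 800 and of 800 to 1000 UMIs, then at 6857 CPM in those of 1000 to 1500 UMIs. Above that they stayed between 6302 and 6587 CPM. Prdm16 was also level in the shallow set and then higher, with 315, 325 and 335 CPM in the 3 shallow bins, 592 CPM at 1000 to 1500 UMIs, 904 CPM at 1500 to 2000 and 1007 to 1124 CPM in the deep bins. Mitochondrial RNA stood at 802, 1192 and 963 CPM in the 3 shallow bins. It stood at 986 CPM at 1000 to 1500 UMIs and 652 CPM at 1500 to 2000, then at 244 CPM at 2000 to 3000 UMIs and 102 CPM over 6000. The bins of 1000 to 1500 and of 1500 to 2000 UMIs each held 1 barcode of at least 5% mitochondrial UMIs, at 14.9% and 7.44%. The bins under 600 and of 600 to 800 UMIs held 1 and 3 such barcodes. Levels of the single bins without them were not computed, so where mitochondrial RNA began to fall is uncertain. At the limit itself, barcodes of 900 to 1000 UMIs had 9182 CPM of oxidative phosphorylation genes and those of 1000 to 1100 had 8415 CPM. Ribosomal protein genes were at 3009 and 2902 CPM on the 2 sides of that limit, spliced genes under 10 kb at 62944 and 60926 CPM, and the mitochondrial genome at 896 and 2276 CPM, with 1 of the 123 barcodes just above the limit at 14.9% mitochondrial UMIs.

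Predicted genes aside, the genes with the lowest ratios came from longer genes with GC-rich transcripts. Sept9, a septin of the cytoskeleton, stood at 333 against 1116 CPM, 3.35-fold lower (ratio 0.299, 0.277 to 0.322). Gse1, a coiled-coil protein, stood at 132 against 436 CPM. Prdm16, a transcriptional regulator of brown adipocyte identity, was 3.22-fold lower with 324 against 1046 CPM. Pmepa1, an inhibitor of TGF-beta signalling, was at 236 against 736 CPM, and Macrod1, an ADP-ribosyl hydrolase of mitochondria, at 51.4 against 164 CPM. The nuclear receptor Ppard and the lysosomal regulator Tfeb were at 27.6 against 81.3 CPM and 43.9 against 127 CPM. The other 8 of the 15 lowest were Rcan1, Gramd4, Rhof, Ephb2, Uck2, Ank1, Ski and Shb, with ratios of 0.327 to 0.377. All 15 had a transcript GC content of 53.3% to 63.2% and spanned 29.6 to 353 kb, where the median tested gene had 48.5% and 40.8 kb. Each of the 15 was also lower when only barcodes under 700 UMIs were used, with ratios of 0.268 to 0.410.

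Transcript GC content was examined after this pattern had been seen. Across the 6141 tested protein-coding genes, the log2 ratio had a Spearman correlation of −0.49 (Pearson −0.45) with the GC content of the longest spliced transcript and of −0.23 with gene span. These are descriptions over genes, which are not independent. The median log2 ratio was 0.38 for transcripts under 45% GC, 0.15 for 45 to 50%, −0.06 for 50 to 55% and −0.27 for 55% or more. The number of genes at least 2-fold lower went from 5 of 1745 in the first class to 66 of 1048 in the last. The order held within every class of gene span. Among genes of 100 kb or more the medians were 0.19, −0.04, −0.31 and −0.59, and among genes under 10 kb they were 0.70, 0.58, 0.45 and 0.14. Short genes were thus higher than long ones at each GC level. With barcodes under 700 UMIs as the shallow set the medians were 0.38, 0.14, −0.09 and −0.30. With only barcodes carrying under 2 UMIs of non-adipocyte markers they were 0.40, 0.16, −0.07 and −0.30. With all barcodes of 2000 UMIs or more as the deep set they were 0.32, 0.13, −0.03 and −0.16, and 36 in place of 66 genes of the last class were at least 2-fold lower. The order was not particular to shallow barcodes: barcodes over 6000 UMIs, set against those of 2000 to 6000, had medians of 0.11, 0.03, −0.05 and −0.18. Barcodes of 1500 to 2000 UMIs went the other way, with 0.03, 0.02, 0.04 and 0.12.

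**Figure D3:**
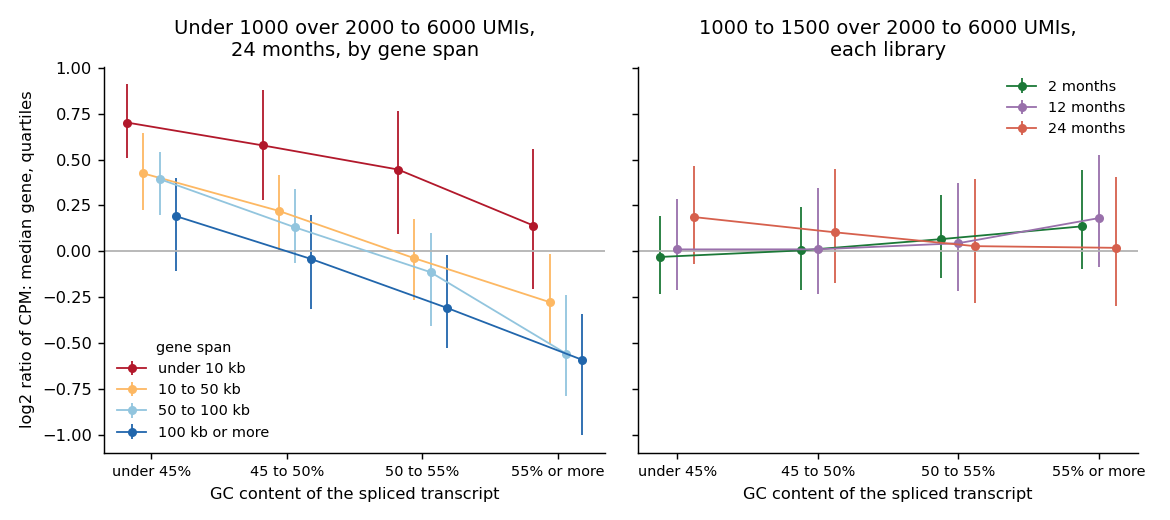
Both panels show the log2 ratio of CPM (median gene as points, quartiles as bars) against 4 classes of transcript GC content. The left panel splits the shallow over deep ratios by gene span, with all 4 lines going down from left to right, and the right panel shows barcodes of 1000 to 1500 over those of 2000 to 6000 UMIs in each library, where only the 24-month line goes down.

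As cut to 10000 barcodes, the younger libraries hold no shallow ones. The nearest contrast was therefore made in each library between barcodes of 1000 to 1500 and of 2000 to 6000 UMIs. It rests on 196, 280 and 501 barcodes of the lower class at 2, 12 and 24 months, and since the younger libraries begin at 1469 and 1343 UMIs, their lower class holds only the upper end of that range. The medians over the 4 GC classes were 0.19, 0.10, 0.03 and 0.02 at 24 months. They were −0.03, 0.01, 0.07 and 0.14 at 2 months and 0.01, 0.01, 0.04 and 0.18 at 12 months, in the opposite order. Mitochondrial RNA was higher in the lower class of every library, where in the order of age the ratios were 1.52 (1.25 to 1.83), 2.20 (2.10 to 2.31) and 5.03 (4.60 to 5.49). The levels were 396 against 260 CPM, 4350 against 1973 CPM and 986 against 196 CPM, so both classes were highest at 12 months. At 24 months the lower class included 1 barcode with 14.9% mitochondrial UMIs, and the ratio without it was not computed. Cytosolic ribosomal protein genes had ratios of 1.03 (0.930 to 1.13), 1.66 (1.56 to 1.76) and 1.50 (1.43 to 1.58). Spliced genes under 10 kb had ratios of 1.09, 1.19 and 1.14. Endothelial markers had ratios of 1.95, 3.54 and 5.47, so the level of markers of another cell type also moved with depth. Whether the mix of cell types itself moved, and its part in these ratios, was not tested. Age and library cannot be told apart with 1 library for each age.

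Predicted genes aside, the 10 largest gains in CPM included the fat cell genes Acaca, Cd36, Ucp1, Pparg and Fabp4, and the predicted gene Gm42418, described last, gained more than any of them at 6420 CPM. Acaca, for the acetyl-CoA carboxylase that opens fatty acid synthesis, was at 6521 against 4885 CPM, a ratio of 1.34 (1.31 to 1.36). Camk1d, a calcium-dependent kinase, was at 2551 against 1323 CPM, and Cd36, the fatty acid transporter, at 2491 against 1370 CPM. Ucp1 was at 2597 against 1545 CPM, a ratio of 1.68 (1.63 to 1.73). Pparg, the master regulator of fat cells, was at 5135 against 4098 CPM, and Fabp4, a fatty acid binding protein, at 1852 against 1090 CPM. The rest of the 10 were Rsrp1, Cmss1, Luc7l2 and Gk, with ratios of 1.47 to 1.83. Cmss1 overlaps Filip1l on the opposite strand, and the sources used here do not say whether counting used strand. The 10 largest losses were led by Malat1 and Neat1. Ppargc1b, a coactivator of mitochondrial genes, was at 1977 against 3831 CPM, and Ppara, a nuclear receptor of fatty acid oxidation, at 2782 against 4488 CPM. Tspan18 was at 804 against 2013 CPM and Tns1, an adhesion protein, at 791 against 1693 CPM. Rora, Nedd4l, Nfia and Acsl1 had ratios of 0.599 to 0.835.

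Markers of adipocytes as a class did not separate the 2 sets. The 12 adipocyte markers summed to 18163 CPM in shallow and 17818 CPM in deep barcodes, a ratio of 1.02 (1.01 to 1.03) that fell to 0.949 when centred on the median gene. Of the 12, 5 were higher and 7 lower. Lpl, the lipoprotein lipase, was at 1563 against 1129 CPM and Dgat2, the last enzyme of triglyceride synthesis, at 560 against 887 CPM. The 20 genes of brown adipocytes and heat production had a ratio of 0.881 (0.872 to 0.891) and moved both ways, with 12 higher and 8 lower. The short genes Cox8b, Cox7a1, Elovl3 and Ucp1 had ratios of 2.09, 1.84, 1.76 and 1.68. Prdm16, Acot11, Kcnk3 and Ppara, which span 37.1 to 320.7 kb, had ratios of 0.310, 0.538, 0.559 and 0.620. The list did not split by span alone: Gk spans 74.9 kb and was higher, with a ratio of 1.47. The sum of this list therefore does not describe its members.

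Metabolic lists showed the same mixture. De novo lipogenesis had a ratio of 1.03 (0.955 when centred), with Scd1, the stearoyl-CoA desaturase, at 705 against 350 CPM and Fasn, the fatty acid synthase, at 947 against 1147 CPM. Fatty acid oxidation had a ratio of 1.16, with 15 of 19 higher, and Etfa, an electron carrier of that pathway, at 670 against 403 CPM. Triglyceride storage and lipolysis had a ratio of 0.904, and Mgll, the monoacylglycerol lipase, was at 436 against 1129 CPM. Glycolysis and glucose uptake had a ratio of 1.06, which became 0.990 when centred. Chaperones had a ratio of 1.35 and immediate early genes of 1.19, with Dusp1, a stress-induced phosphatase, at 316 against 123 CPM. Extracellular matrix and secreted proteins had a ratio of 1.02 (0.989 to 1.04). Within that list Cfd, for adipsin, was at 74.3 against 32.8 CPM and the basement membrane genes Col4a1 and Col4a2 at 151 against 194 CPM and 143 against 193 CPM.

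Genes of pyroptosis, the inflammatory form of cell death that the study addresses, were close to the detection limit. The 14 genes summed to 154 UMIs in all shallow barcodes, or 72.0 against 59.7 CPM, a ratio of 1.21 (1.01 to 1.43). Their level moved with depth, from 47.7 CPM (31.7 to 68.9) under 600 UMIs to 101.2 CPM (75.6 to 133) at 800 to 1000 and 176 CPM at 1000 to 1500, and was 48.0 CPM at 4000 to 6000 UMIs. Endothelial and macrophage markers took the same course, and their part in it was not tested. Casp8, an initiator caspase, was the only member to pass the level filter, at 30.4 against 22.5 CPM. Gsdmd, the pore-forming gasdermin, had 5 UMIs in the shallow set, and Il1b and Casp1 had 0, which allows up to 1.40 CPM for each. Apoptosis genes had a ratio of 1.08 (0.995 to 1.18), an interval that includes 1.

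Markers of the other cell types were at low levels in both sets. Endothelial markers summed to 582 against 360 CPM, a ratio of 1.62 (1.52 to 1.72), and macrophage markers to 223 against 107 CPM, a ratio of 2.08 (1.87 to 2.31). Fibroblast markers were at 351 against 424 CPM, a ratio of 0.827 that turned to 1.39 with all barcodes of 2000 UMIs or more as the deep set, and pericyte and smooth muscle markers at 159 against 256 CPM, a ratio of 0.621. Schwann cell markers had a ratio of 0.753 and those of neutrophils and mast cells of 0.872 (0.733 to 1.03). T and NK cell markers summed to 33 UMIs in shallow barcodes, red blood cell markers to 84, skeletal muscle markers to 47, lymphatic endothelial markers to 5 and mesothelial markers to 2. The B and plasma cell list, at 496 against 953 CPM, rested on Ebf3 at 439 against 927 CPM, and its member Ms4a1 had 5 UMIs in shallow barcodes.

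**Figure D4:**
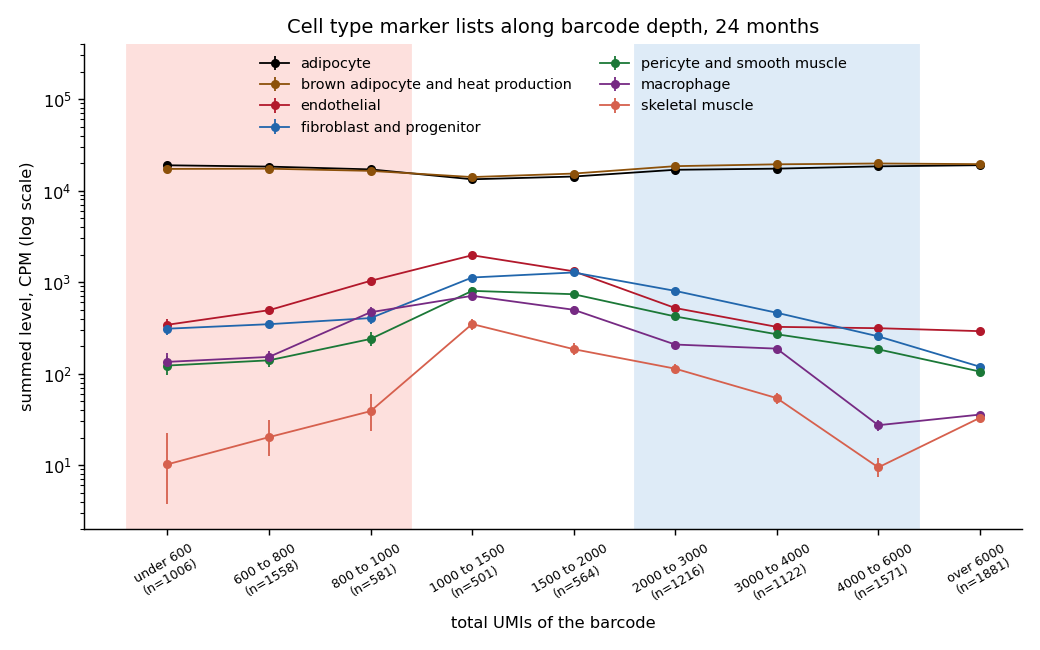
The horizontal axis is the total UMIs of the barcode in 9 bins with their number of barcodes, and the vertical axis is the summed CPM of each marker list on a log scale with exact 95% counting intervals. Red and blue shading mark the shallow and deep bins. Both adipocyte lists stay far above the others throughout, while the other 5 lists plotted peak between 1000 and 2000 UMIs.

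The endothelial and macrophage levels belonged to the upper end of the shallow set. Endothelial markers stood at 342 CPM under 600 UMIs, 493 CPM at 600 to 800 and 1033 CPM at 800 to 1000, and then at 1966 CPM at 1000 to 1500 UMIs. Macrophage markers stood at 134, 152 and 469 CPM in the 3 shallow bins. With only barcodes under 700 UMIs the ratios were 1.05 for endothelial and 1.26 for macrophage markers, and with all barcodes of 2000 UMIs or more as the deep set the macrophage ratio was 3.33. Several of the 15 highest genes were of this kind. Adgrl4, an adhesion receptor of endothelium, was at 50.5 against 6.54 CPM, a ratio of 7.72 (5.81 to 10.3), and at 3.51 with barcodes under 700 UMIs. Flt1, a VEGF receptor, went from a ratio of 4.02 to 2.01 and Egfl7, an endothelial secreted factor, from 3.36 to 1.62. For Cyyr1 the ratio went from 3.49 to 0.953, so its direction turned. Stab1, a scavenger receptor of sinusoidal endothelium and macrophages, went from 3.60 to 1.57, and was at 10.5 where only barcodes with under 2 non-adipocyte marker UMIs were kept. Etl4 and Ccdc85a went from 3.54 to 1.21 and from 3.08 to 2.12. The mitochondrial genes that filled the other 8 places kept ratios of 3.83 to 5.50.

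Few shallow barcodes carried a clear signature of another cell type. With every barcode thinned to 500 UMIs, 16.2% of shallow and 13.7% of deep barcodes had an endothelial UMI, but 1.84% and 0.972% had at least 3. Without thinning, 20.4% and 46.3% had an endothelial UMI. Fibroblast UMIs were found in 14.1% of shallow and 8.11% of deep barcodes after thinning (17.8% and 24.8% before). At least 3 fibroblast UMIs were found in 0.763% and 3.20%. In shallow barcodes fibroblast UMIs were thus spread over more barcodes, and fewer barcodes held several of them. Pericyte UMIs were found in 6.30% of shallow and 8.01% of deep barcodes after thinning (8.46% and 31.4% before), and at least 3 in 0.223% and 1.66%.

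Carriers of at least 3 UMIs of endothelial, fibroblast, pericyte or macrophage markers after thinning gave a further view. There were 120 among shallow barcodes (median 778 UMIs) and 254 among deep ones (median 2848.5 UMIs). Adipocyte markers stood at 11400 CPM in shallow carriers and 18474 CPM in the other shallow barcodes, and at 5203 CPM and 18533 CPM in deep ones. Ucp1, which these cell types should lack, was at 1295 CPM in shallow carriers and 555 CPM in deep carriers. A Ucp1 UMI was present in 46.7% of shallow and 23.2% of deep carriers after thinning, and in 58.3% and 77.2% before. In the remaining barcodes the thinned shares were 71.7% and 53.4% and the unthinned shares 80.5% and 96.9%. Over all barcodes the thinned shares with a Ucp1 UMI were 70.8% and 51.4%. RNA that was free in the suspension can put Ucp1 into any droplet, and its part in the shallow profile was not tested.

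At matched depth, Malat1 and several lists of fat cell genes varied less among shallow than among deep barcodes, while other transcripts varied more. The variance over the mean of UMIs among thinned barcodes is near 1 for a small list where barcodes differ by sampling alone. For a kind with a large share of all UMIs, sampling alone gives a value below 1. The variance over the mean was lower in shallow barcodes for 29 of the 52 lists, kinds and genes examined, which overlap. For Malat1 it was 1.55 in shallow and 4.25 in deep barcodes, and 90% of shallow barcodes held 15 to 34 Malat1 UMIs, against 12 to 47 for deep ones. De novo lipogenesis genes had 1.30 and 3.48, Acaca alone 1.19 and 2.13, and adipocyte markers 1.20 and 1.83. Fibroblast markers had 1.64 and 5.05, macrophage markers 2.86 and 6.38 and skeletal muscle markers 0.990 and 16.2. The opposite held for the mitochondrial genome at 26.8 and 3.12, endothelial markers at 3.38 and 2.63 and all long noncoding RNAs at 2.33 and 2.13. The long noncoding RNAs include Gm42418, which had 6.99 and 3.48. The highest count in a single thinned barcode was 178 mitochondrial UMIs in the shallow set and 32 skeletal muscle UMIs in the deep set. The mitochondrial value of 26.8 and the skeletal muscle value of 16.2 therefore rest largely on single barcodes. Neat1 had 1.54 and 1.50, nuclear oxidative phosphorylation genes 1.43 and 1.34 and cytosolic ribosomal protein genes 1.37 and 1.30. Prdm16 and Ucp1 were near 1 in both sets, at 1.21 and 1.23 and at 1.10 and 1.07. A Prdm16 UMI was found in 14.2% of shallow and 38.2% of deep barcodes after thinning (18.1% and 88.3% before).

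**Figure D5:**
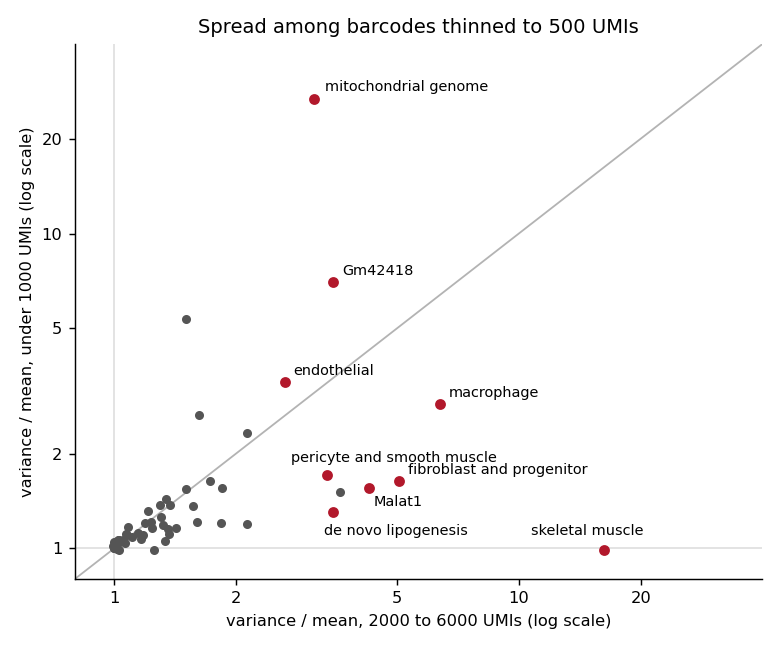
Each point is a gene list, a kind of gene or a gene, placed by its variance over mean among barcodes thinned to 500 UMIs, with deep barcodes on the horizontal axis and shallow barcodes on the vertical axis, both on log scales. The diagonal marks equal spread, the pale lines mark 1, and red points are named; Malat1 and de novo lipogenesis lie below the diagonal and the mitochondrial genome above it.

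Predicted genes at an annotated ribosomal RNA gene on chromosome 17 were outside the naming rule and were looked at after their values were seen. Gm42418 was at 21190 CPM in shallow and 14770 CPM in deep barcodes, a ratio of 1.43 (1.42 to 1.45). AY036118 was at 1027 against 550 CPM. Gm26917, which lies next to them, was at 1489 against 4255 CPM, a ratio of 0.350 (0.338 to 0.363). Gm42418 and AY036118 overlap that ribosomal RNA gene and each other, so their single values are uncertain. Gm42418 also varied more among shallow barcodes, with a variance over mean of 6.99 against 3.48, as did Gm26917 with 2.65 against 1.62. Within the shallow set Gm26917 stood at 1023, 1485 and 2031 CPM in the 3 bins.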

How the data were processed

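Whole-number UMI counts per gene and barcode were deposited by the authors for 3 libraries, with 1 library for each age, so there were no replicates. The authors made the counts with Cell Ranger on mm10, and each library holds 10000 barcodes, the number to which it was forced. The processing notes name version 7.0.1 and the methods an earlier version. No source used here says if intronic reads were included. UMIs were summed over barcodes under 1000 UMIs and over those of 2000 to 6000 UMIs at 24 months and scaled to CPM. No test was made. Levels carry exact 95% Poisson intervals and ratios exact binomial intervals. Both cover counting error only. Genes with a mean of at least 20 CPM over both sets were compared, and a level of 0 UMIs was set to 3 counts. Calls were ratios of at least 2 or at most 0.5. Gene spans, exons and transcript GC came from GENCODE vM21, in which 99.8% of the 32285 gene identifiers were found. Shares and spread used barcodes thinned to 500 UMIs with a fixed seed. Doublets were not called, and barcodes over 6000 UMIs lie outside both sets. The members and the 33 gene lists were chosen with earlier results of these data known. Genes named were list members, the 15 highest and 15 lowest ratios, and the 10 largest gains and losses in CPM, without predicted genes. The 8 alternatives are given in the closing section. The ratios, their intervals and the 2-fold call were tested on simulated counts. Python 3.11.15, numpy 2.4.6, pandas 2.3.3 and scipy 1.17.1 were used.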

Additional observations from a re-analysis of the deposited data

Results flagged for a closer look

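Skeletal muscle markers, such as the sarcomere genes Ttn and Neb, went different ways with depth in the 3 libraries. In barcodes of 1000 to 1500 over those of 2000 to 6000 UMIs their summed ratio, in the order of age, was 0.193 (0.0397 to 0.565), 1.98 (1.24 to 3.03) and 8.12 (6.92 to 9.50). The intervals cover counting error only. Each age is 1 library, and the difference was not tested. In the 24-month library the level was 348 CPM at 1000 to 1500 UMIs, against 10.2 CPM under 600 UMIs and 9.45 CPM at 4000 to 6000.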

How the results depend on the processing

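The 8 alternatives kept the direction of all list ratios compared here whose interval excluded 1, except those named next. Centring on the median gene put genes of 10 to 50 kb at 0.991, of 50 to 100 kb at 0.980, adipocyte markers at 0.949, lipogenesis at 0.955 and glycolysis at 0.990. With all barcodes of 2000 UMIs or more as the deep set, adipocyte markers were at 0.984, lipogenesis at 0.999 and fibroblast markers at 1.39. With under 2 non-adipocyte marker UMIs a barcode, adipocyte markers were at 0.997. Of the 88 named genes that passed the level filter, Cyyr1 was the only one counted as turned, at 0.953 under 700 UMIs. Rps7, whose main ratio was close to 1, also went below 1 under 700 UMIs, as given above, and is not in that count. The cause was not tested. Genes at least 2-fold higher numbered 65 when centred and 395 at a mean of 5 CPM. Genes at least 2-fold lower numbered 73 with the wider deep set, 195 with a shallow set under 700 UMIs and 307 at 5 CPM. In the order wider deep set, shallow under 700, centred and under 2 marker UMIs, the ratio of the mitochondrial genome was 7.20, 4.46, 4.89 and 5.64, that of spliced genes under 10 kb 1.36, 1.30, 1.21 and 1.29, that of genes of 100 kb or more 0.913, 0.922, 0.855 and 0.921, and that of nuclear retained RNAs 0.844, 0.850, 0.799 and 0.868. Ribosomal protein genes were at 1.86 with the wider deep set and 1.63 centred, and endothelial markers at 1.81, 1.05 under 700 and 1.51 centred. Equal weight for every barcode gave 4.90 for the mitochondrial genome, 1.29 for genes under 10 kb and 1.40 for endothelial markers, and leaving out barcodes of at least 5% mitochondrial UMIs gave 4.28. The median log2 ratio became 0.32 when centred for genes under 10 kb, and −0.12 under 700, −0.18 centred and −0.039 under 2 marker UMIs for genes of 100 kb or more. No paired analysis was possible because each age is 1 library.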
